A study of Mus musculus with 6 samples.

Results

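The serine, one-carbon and nucleotide synthesis genes are 38 genes that supply dividing cells with serine, glycine, folate-bound carbon units, purines and pyrimidines. They were taken by name and function, by a rule that reads no measured value, although earlier results of these data were known when the list was drawn up. A row was found for 34 of the 38 among 10772 rows of the expression table. Aldh1l2, Gldc, Pfas and Atic had no row and were not analysed. RNA was measured in natural killer T (NKT) cells, which are T cells whose nearly invariant receptor recognises lipids presented by CD1d. The cells came from mouse thymus and were sorted as population P1, positive for the PBS-57-loaded CD1d tetramer and negative for CD24, NK1.1 and CD44. The 3 wild-type (WT) libraries were compared with 3 libraries from UTX/JMJD3 double-knockout (DKO) mice. Kdm6a encodes UTX and Kdm6b encodes JMJD3, the demethylases of histone H3 lysine 27. All mice had a mixed C57BL/6 and 129 background, and each genotype had female mice as replicates 1 and 2 and a male as replicate 3. The sources used here do not state the age of the mice, the driver of the deletion or whether each library came from its own animal. The spread behind each p-value is therefore that between libraries, which may be technical between the female libraries and includes the difference between the sexes.

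Cells make serine from a glycolytic intermediate through Phgdh, Psat1 and Psph. Serine hydroxymethyltransferases then pass a carbon unit from serine to folate and release glycine, in the cytosol through Shmt1 and in mitochondria through Shmt2. The folate-bound units are oxidised, or released as formate, by the Mthfd enzymes and are used to build the purine ring and thymidylate. Purines and pyrimidines can also be recovered from free bases and nucleosides by salvage enzymes. T cells raise many of these genes when they are activated to divide, and the transcription factors Myc and Atf4 are known regulators of them.

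The 3 promoters below belong to the members with the smallest p-values in the genotype comparison, and they show what lies just upstream of the genes on which the results turn most. Each is the window of 250 bases before the RefSeq start site on the GRCm38.p6 build, read 5′ to 3′ on the gene's own strand. The windows are chr10:127522445-127522694 for Shmt2 (ENSMUSG00000025403), chr3:98339970-98340219 for Phgdh (ENSMUSG00000053398) and chr6:83317605-83317854 for Mthfd2 (ENSMUSG00000005667), all on the minus strand. Capitals mark matches to CCAAT, the box bound by NF-Y, or to GCGCATG, the core of the motif bound by nuclear respiratory factor NRF1, on either strand.
Shmt2: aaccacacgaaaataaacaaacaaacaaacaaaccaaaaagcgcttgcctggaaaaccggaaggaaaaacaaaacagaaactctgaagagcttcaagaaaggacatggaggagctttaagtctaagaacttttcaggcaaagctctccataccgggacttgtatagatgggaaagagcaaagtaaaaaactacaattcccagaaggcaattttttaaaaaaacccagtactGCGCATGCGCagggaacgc
Phgdh: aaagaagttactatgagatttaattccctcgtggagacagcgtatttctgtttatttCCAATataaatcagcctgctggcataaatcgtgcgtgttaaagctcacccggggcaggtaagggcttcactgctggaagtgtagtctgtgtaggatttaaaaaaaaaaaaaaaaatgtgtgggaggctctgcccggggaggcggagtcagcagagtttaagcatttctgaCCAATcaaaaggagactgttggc
Mthfd2: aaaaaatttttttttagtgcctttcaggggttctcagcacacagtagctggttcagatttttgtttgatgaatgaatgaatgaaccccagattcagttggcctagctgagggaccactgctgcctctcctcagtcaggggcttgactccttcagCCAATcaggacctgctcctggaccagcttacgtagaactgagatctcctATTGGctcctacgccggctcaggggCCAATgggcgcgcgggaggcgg
The capitals of the Shmt2 window are GCGCATG matches on both strands that overlap each other. The capital ATTGG in the Mthfd2 window is CCAAT on the other strand. The E-box CACGTG, a site for Myc, and TGATGCA, a core of Atf4 sites, were searched on both strands, and neither lies in these 3 windows.

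The counts of motifs used a longer window of 300 bases, from 250 before to 50 after the start site, for the members and for all genes alike. Over the 31 members with a promoter in the RefSeq table, the E-box was found in 2, Impdh2 and Paics, against 8.09% of all 27025 genes. TGATGCA was found in 1, Got1, against 3.63% of all genes. CCAAT was found in 13 of the 31, against 41.1% of all genes, and GCGCATG in 3 (Ctps, Ppat and Shmt2), against 4.41%. The last 2 motifs were added after the printed windows had been read. The matches of Ppat to GCGCATG and of Impdh2 to CCAAT lie after the start site. All are descriptions of letters in the window, and binding was not measured.

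The values are RPKM, read numbers per unit of gene length and of sequencing depth, and a row was kept only where 2 or more libraries exceeded RPKM 3. Implied totals were 32.4 M and 34.4 M reads in replicate 1 of WT and DKO and 5.0 M to 7.2 M in the other 4 libraries. The column headers name replicate 1 of both genotypes Set1, and these libraries stood apart in markers of immature thymocytes too. Cd8a reached RPKM 174 and 148 in replicate 1 of WT and DKO and lay between 0 and 5.71 elsewhere, and Dntt was at 84.2 and 65.8 against 0 to 1.73 elsewhere. Results are therefore also given for the replicate 1 pair and for the other 4 libraries. The labels do not say which exons were deleted, and whole-gene values of the targeted genes overlapped between the genotypes, so they do not check the labels. Kdm6a was at RPKM 7.06, 4.87 and 1.94 in WT against 4.97, 5.28 and 3.53 in DKO. Kdm6b was at 1.62, 3.12 and 3.65 in WT against 1.41, 0.978 and 2.59 in DKO. The summed level of 8 T cell and NKT genes was 1873 to 1970 in WT against 1873 to 2032 in DKO. Within that list Thy1 was lower without overlap (12.5% of the list, near the 11.4% of all genes tested). It was at RPKM 149, 270 and 202 in WT against 38.5, 0.732 and 41.7 in DKO. Cd5, Cd28 and Cd3g were higher without overlap (37.5% of the list, against 5.71% of all genes). The NKT factor Zbtb16 was low in every library, at RPKM 0.776 to 5.35. B cell and erythroid markers had no row.

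Most of the 34 genes stood lower in DKO cells, with the mitochondrial folate gene Shmt2 at a mean RPKM of 29.4 against 90.4 in WT. On the log2(RPKM + 1) scale, 31 of 34 members had a change below 0 and 3 had a change above 0, Slc1a5, Gmps and Impdh1. The median change of the members was -0.51, beside -0.11 over all 10694 genes tested. No member passed limma with Benjamini-Hochberg adjustment over all genes tested at 0.05, where 0.0842% of all genes were called, 0.0748% lower and 0.00935% higher. At an unadjusted p under 0.05, limma placed 7 of 34 members (20.6%) lower, against 8.14% of all genes, and 0 higher, against 2.88%.

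The groups did not overlap for 8 members that were lower in DKO (23.5%, against 11.4% of all genes) and for 1 that was higher (2.94%, against 5.71%). The 8 are Phgdh, Shmt2, Mthfd2, Slc3a2, Gart, Adsl, Cad and Cmpk1, which belong to 5 of the 7 roles, and the 1 higher member is Gmps. Changes below 0 were found for 57.1% of all genes. In the replicate 1 pair alone 23 of 34 members were below 0, with a median of -0.39, and 53.3% of all genes were. In the other 4 libraries 28 of 34 members were below 0, with a median of -0.42, beside a median of -0.12 over all genes. Lower without overlap were 14 of 34 and higher 2 of 34, against 2833 (26.5%) and 1854 (17.3%) of 10694 genes in those libraries. The 2 sets of libraries shared 19 members below 0. The share of all genes below 0 in both sets was not computed, so this count does not show that the sets agree. Quantile normalization moved the median of all genes to 0.01 and left 27 of 34 members below 0, with Dhodh, Impdh2, Mat2a and Slc38a2 changing sign.

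Summed over the 34 genes, RPKM was 1792, 1593 and 1541 in WT against 1375, 1068 and 1211 in DKO, so the DKO mean was 74.2% of the WT mean and the groups did not overlap. As these are bulk samples, fewer cells expressing a gene and less RNA per cell cannot be told apart.

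**Figure D1:**
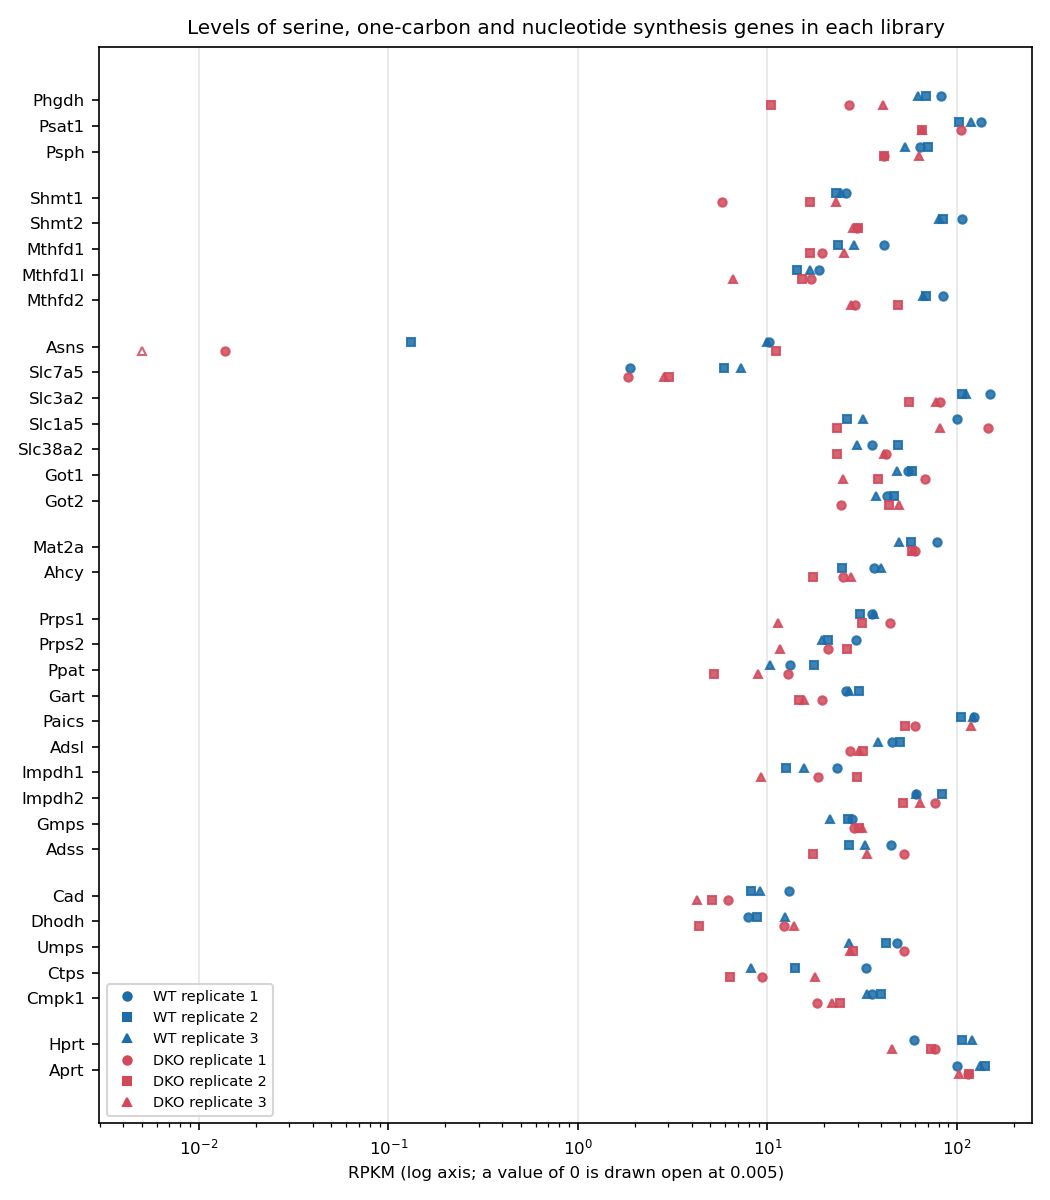
RPKM of the 34 members in each library on a log axis, grouped by role, with WT in blue, DKO in red and a symbol for each replicate. The DKO points of Shmt2 lie together between 28.3 and 30.1, below the 3 WT points from 80.6, and Asns has points near 10 and at or near 0 in both genotypes (its value of 0 is drawn open).

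Proliferation markers were lower in the same libraries as these members. All 24 proliferation markers, among them Mki67, Pcna and the Mcm genes of DNA replication, had a change below 0, with a median of -1.34, and 13 of them (54.2%) were lower without overlap, against 11.4% of all genes. Their summed RPKM was 1746, 1252 and 1125 in WT against 745, 386 and 668 in DKO, or 43.6% of the WT mean. Genes listed as markers of some other cells were also lower in DKO. In the gamma-delta T cell list, the 6 measured genes were Sox13 and the gamma-chain segments Tcrg-C1, Tcrg-C2, Tcrg-C4, Tcrg-V4 and Trgj4. Their sums were RPKM 967 to 1155 in WT against 183 to 229 in DKO, and 6 of 6 had groups that did not overlap. The delta-chain genes listed, Trdc, Trdv4 and Tcrd-V1, had no row. Whether these sums come from gamma-delta T cells was not tested. Of 9 macrophage and dendritic cell markers, Cd68 and Fcer1g had a row, with sums of 11.7 to 17.9 in WT against 0 to 3.08 in DKO. Lyz2, Csf1r, Itgam, Itgax, Adgre1, Flt3 and Zbtb46 had none. Klrb1c, the only gene of the NK cell list with a row, was at RPKM 3.51 to 10.8 in WT against 0.552 to 0.784 in DKO. It encodes NK1.1, and P1 was sorted as negative for NK1.1 among tetramer-positive cells. NK1.1 does not mark NK cells alone, and which cells this RNA came from was not tested. The other 7 NK markers had no row. The sums of 7 CD8 T cell genes overlapped, at 71.2 to 339 in WT against 20.1 to 332 in DKO. Of these 7, Runx3 and Ccl5 (28.6%, against 11.4% of all genes) were lower without overlap, and 0 were higher. Runx3 was at 6.60 to 14.2 in WT against 0.723 to 3.11 in DKO, and Ccl5 at 4.90 to 15.2 against 0 to 0.276. The sums of 6 immature double-positive thymocyte genes were 39.3 to 384 in WT and 30.5 to 347 in DKO, with Rag1 and Rag2 absent from the rows. The stromal marker Pecam1, the only one of 9 with a row, was at 9.82 to 33.9 in WT against 3.05 to 28.4 in DKO. The part of cell division or of other cells in the members' differences was not tested.

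Serine synthesis stood at 60.8% of its WT level in DKO when its 3 genes were summed. The sums were RPKM 280, 241 and 234 in WT against 174, 117 and 169 in DKO, with no overlap. Phgdh, the enzyme of the first step, was at RPKM 82.2, 68.3 and 62.2 in WT against 26.9, 10.4 and 40.6 in DKO. Every DKO library was below every WT library, and DKO replicate 2 was the lowest. The log2 change was -1.59 ± 0.43 (SE, n = 3 and 3), with an adjusted p of 0.22 by limma, and it was -1.57 in the replicate 1 pair and -1.60 in the other 4 libraries. Without DKO replicate 2 it was -1.07. GENCODE names a pseudogene, Phgdh-ps1, so the split of reads between the copies is uncertain.

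Psat1, the transaminase of the next step, was at RPKM 134, 103 and 118 in WT against 105, 65.4 and 65.3 in DKO. DKO replicate 1 lay just above the lowest WT library, and the log2 change was -0.61 ± 0.26 with an adjusted p of 0.419 by limma. Psph, the phosphatase that completes serine, was at RPKM 63.5, 70.0 and 53.4 in WT against 41.2, 41.1 and 63.0 in DKO. The groups overlapped through DKO replicate 3, and the log2 change was -0.38 ± 0.27. The gene shares 10.4% of its exon bases with Cct6a on the opposite strand, and no source used here states whether counting used strand.

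Folate and glycine genes were the role with the lowest DKO level, at 48.0% of WT. Their sums were RPKM 277, 213 and 216 in WT against 101, 128 and 111 in DKO. Most of the difference in the mean sum, 236 in WT against 113 in DKO, lay in Shmt2 and in Mthfd2, whose means were 73.0 and 35.2. Shmt2, the mitochondrial serine hydroxymethyltransferase, was at RPKM 106, 84.4 and 80.6 in WT against 29.8, 30.1 and 28.3 in DKO. The 3 DKO values lay within 2 RPKM units of each other and far below the lowest WT value. The means were RPKM 90.4 ± 13.8 and 29.4 ± 0.933 (SD, n = 3 each), a 3.08-fold difference, and the gene went from the sixth highest member level in WT to the 18th in DKO. The log2 change was -1.58 ± 0.24 with an adjusted p of 0.0542 by limma, rank 15 of all genes tested, just outside the threshold. Its change was -1.80 in the replicate 1 pair and -1.47 in the other 4 libraries. With array weights, which weigh each library by its noise, the limma adjusted p was 0.0388, and over the 19 alternatives it ranged from 0.0388 to 0.33.

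Mthfd2, the mitochondrial enzyme that oxidises the folate-bound unit made by Shmt2, was at RPKM 84.9, 68.3 and 65.9 in WT against 29.0, 49.2 and 27.5 in DKO. The groups did not overlap, and DKO replicate 2 was the nearest to WT. The log2 change was -1.07 ± 0.29 with an adjusted p of 0.22 by limma, at -1.52 in the replicate 1 pair and -0.85 in the other 4 libraries.

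The remaining folate members overlapped between the genotypes. Shmt1, the cytosolic counterpart of Shmt2, was at RPKM 25.9, 22.9 and 24.5 in WT against 5.73, 16.7 and 23.1 in DKO. WT libraries were close together, while the DKO libraries spread from far below WT to its range. The log2 change of -0.84 ± 0.46 rested largely on DKO replicate 1, without which it was -0.30. Mthfd1, the trifunctional cytosolic enzyme, was at RPKM 41.4, 23.5 and 28.7 in WT against 19.3, 16.8 and 25.3 in DKO, a log2 change of -0.57 ± 0.33. Mthfd1l, which releases formate in mitochondria, was at 18.7, 14.3 and 16.8 in WT against 17.1, 15.2 and 6.60 in DKO. Its DKO replicates 1 and 2 lay among the WT values, and the log2 change was -0.42 ± 0.41, or -0.03 without DKO replicate 3.

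**Figure D2:**
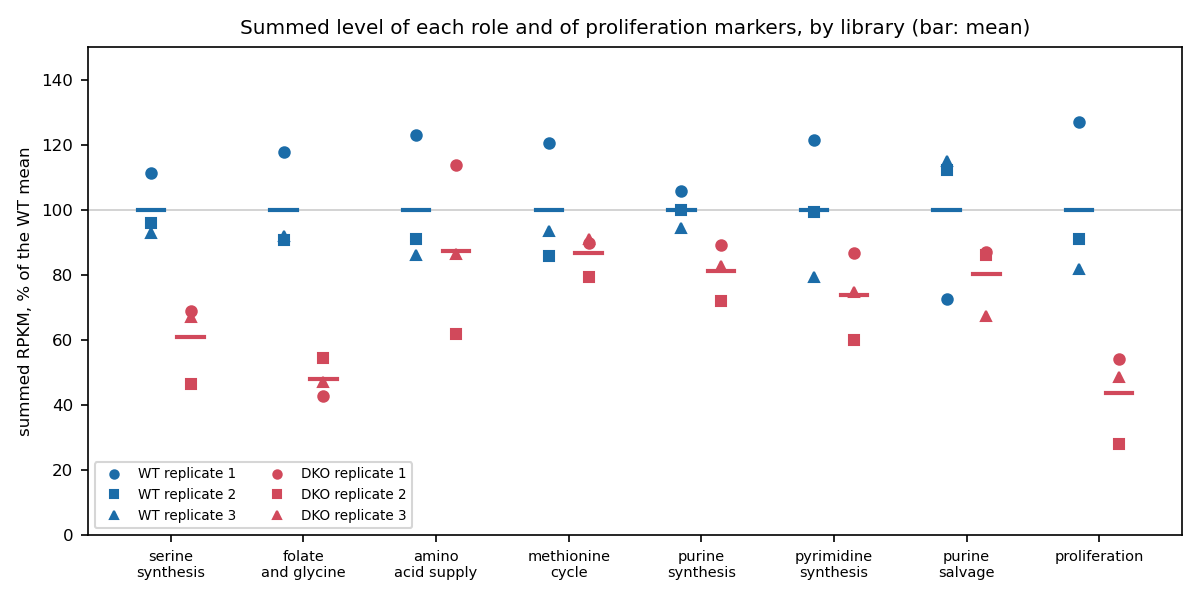
Summed RPKM of each role, and of the 24 proliferation markers, in every library, as a percentage of the WT mean, with bars at the group means. WT and DKO points do not overlap for serine synthesis, folate and glycine, purine synthesis and the proliferation markers, and they overlap for the other 4 roles.

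Amino acid supply was mixed, with a DKO sum at 87.2% of WT and groups that overlapped. Slc3a2, the heavy chain of the CD98 amino acid transporters, was at RPKM 149, 106 and 111 in WT against 81.2, 56.1 and 77.1 in DKO. All DKO libraries were below all WT libraries, and the log2 change was -0.76 ± 0.25 with an adjusted p of 0.285 by limma. It was -0.87 in the replicate 1 pair and -0.71 in the other 4 libraries. Slc7a5, the light chain that pairs with Slc3a2 to carry large neutral amino acids, was the least abundant member, at RPKM 1.88, 5.91 and 7.25 in WT against 1.83, 3.02 and 2.83 in DKO. WT replicate 1 lay with the DKO libraries, and the log2 change was -0.64 ± 0.56.

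Slc1a5, a glutamine and neutral amino acid transporter, had the largest change above 0 among the members, at 0.56 ± 0.66 on the log2 scale. Its RPKM was 99.9, 26.4 and 31.9 in WT against 147, 23.2 and 81.0 in DKO. The high values were replicate 1 of both genotypes and DKO replicate 3, so the groups overlapped widely. Leaving out 1 library at a time moved the change from -0.01 without DKO replicate 1 to 1.29 without DKO replicate 2. Asns, asparagine synthetase, had a pattern of presence and near absence that did not follow genotype. It was at RPKM 10.2, 0.131 and 10.0 in WT against 0.0138, 11.1 and 0 in DKO, which are 692, 2 and 106 reads in WT and 1, 166 and 0 reads in DKO. Both genotypes therefore held libraries near RPKM 10 and libraries at or near 0, and its standard error of 1.15 was the largest among the members.

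Got1 and Got2 encode the cytosolic and mitochondrial aspartate transaminases, which provide aspartate for nucleotide rings. Got1 was at RPKM 55.1, 57.6 and 48.3 in WT against 67.7, 38.2 and 25.2 in DKO, spread on both sides of WT, with a log2 change of -0.40 ± 0.35. The change was -0.77 without DKO replicate 1 and -0.07 without DKO replicate 3. Got2 was at 37.4 to 46.7 in WT against 24.5 to 49.3 in DKO, with a log2 change of -0.16 ± 0.32. Slc38a2, an amino acid transporter induced by amino acid shortage, was at 29.8 to 49.1 in WT against 23.3 to 42.3 in DKO, with a change of -0.12 ± 0.33.

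Neither methionine cycle member passed the test, and both overlapped between the genotypes. Mat2a, which makes S-adenosylmethionine, the methyl donor of histone methyltransferases, was at RPKM 78.1, 56.9 and 49.2 in WT against 60.2, 58.1 and 58.9 in DKO. The DKO values lay inside the WT range, and the log2 change was -0.03 ± 0.26. Ahcy, which clears the S-adenosylhomocysteine left by methylation, was at 36.4, 24.7 and 39.6 in WT against 25.2, 17.4 and 27.7 in DKO. Only WT replicate 2 lay among the DKO values, and the log2 change was -0.50 ± 0.32. In Mat2a, 11.3% of the exon bases overlap Particl on the opposite strand.

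**Figure D3:**
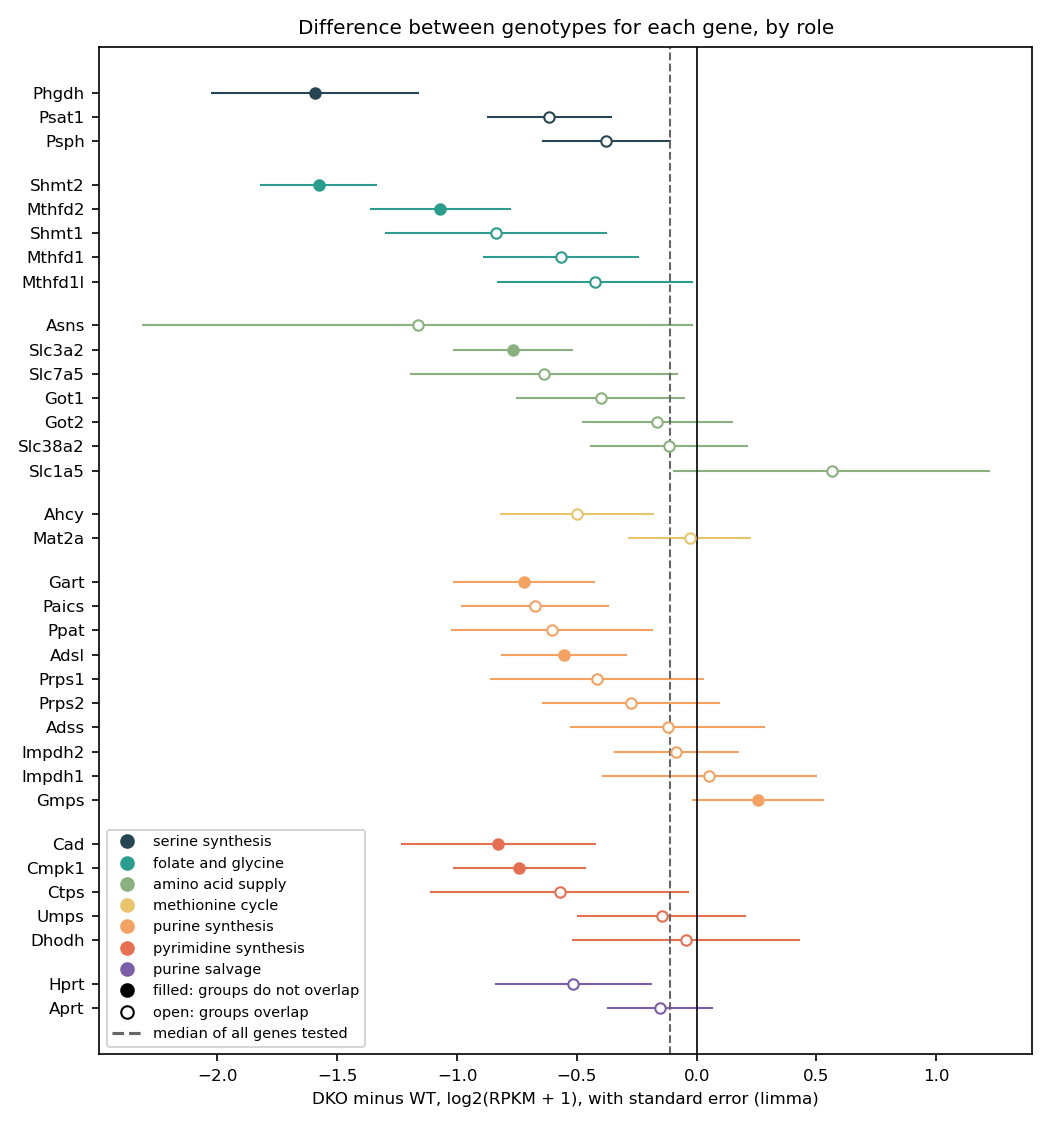
Log2 change of each member on the log2(RPKM + 1) scale, DKO minus WT, with its standard error, coloured by role and filled where the groups do not overlap, and with a dashed line at the median of all genes tested. Phgdh (-1.59) and Shmt2 (-1.58) have the lowest values, and 3 members lie above 0.

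Purine synthesis stood at 81.3% of WT in the sum of its 10 measured genes, and the sums did not overlap. They were RPKM 429, 405 and 383 in WT against 362, 292 and 335 in DKO. The pathway starts with phosphoribosyl pyrophosphate, made by Prps1 and Prps2. Prps1 was at 35.8, 30.9 and 36.4 in WT against 44.6, 31.6 and 11.4 in DKO, and without DKO replicate 3 its log2 change of -0.42 turned to 0.13. Prps2 was at 19.3 to 29.3 in WT against 11.7 to 26.3 in DKO. Ppat, which commits the ring to synthesis, was at 10.3 to 17.6 in WT against 5.26 to 12.8 in DKO, with a log2 change of -0.60 ± 0.42.

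Gart, a trifunctional enzyme that uses folate-bound formyl units to extend the ring, was at RPKM 26.0, 30.6 and 26.9 in WT against 19.4, 14.6 and 15.7 in DKO. The groups did not overlap, and the log2 change was -0.72 ± 0.29 with an adjusted p of 0.406 by limma. It was -0.40 in the replicate 1 pair and -0.88 in the other 4 libraries. The antisense gene Gm15964 overlaps 19.7% of its exon bases, so reads of the pair cannot be told apart without strand. Adsl, the lyase that acts in both the ring and the AMP branch, was at 45.4, 50.4 and 38.2 in WT against 27.4, 32.1 and 30.4 in DKO. All DKO values were below all WT values, with a log2 change of -0.55 ± 0.26 and an adjusted p of 0.481 by limma.

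Paics, the bifunctional enzyme between Gart and Adsl in the pathway and the most abundant purine synthesis member, was at RPKM 122, 106 and 121 in WT against 60.4, 53.0 and 119 in DKO. DKO replicate 3, the male library, lay at the WT level, and the other DKO libraries well below it. The log2 change was -0.67 ± 0.31 with an adjusted p of 0.466 by limma, and -1.03 without DKO replicate 3. Paics and Ppat share 272 exon bases on opposite strands.

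For Gmps, Impdh1, Impdh2 and Adss, which act after IMP, the changes were smaller than their standard errors. Gmps, which makes GMP, was at RPKM 28.0, 26.5 and 21.3 in WT against 28.5, 30.6 and 31.5 in DKO. It was the single member higher in DKO without overlap, by a margin of less than 1 RPKM unit, and its log2 change was 0.26 ± 0.28 with an adjusted p of 0.766 by limma. Impdh2, the main IMP dehydrogenase of dividing cells, was at 60.6 to 83.2 in WT against 52.1 to 76.5 in DKO, and Impdh1 was at 12.5 to 23.2 and 9.22 to 29.5. Adss, which starts the AMP branch, was at 27.0 to 45.2 in WT against 17.3 to 52.8 in DKO. These 3 had log2 changes of -0.08 ± 0.26, 0.05 ± 0.45 and -0.12 ± 0.41.

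Pyrimidine synthesis stood at 73.8% of WT, with sums of RPKM 138, 113 and 90.1 in WT against 98.5, 68.2 and 85.0 in DKO that overlapped. Cad, which carries out the first 3 steps, was at 13.0, 8.17 and 9.10 in WT against 6.23, 5.12 and 4.23 in DKO. Every DKO value was below every WT value, and the log2 change was -0.83 ± 0.41 with an adjusted p of 0.5 by limma. Its change was -0.95 in the replicate 1 pair and -0.77 in the other 4 libraries. Cmpk1, the kinase that turns CMP and UMP into diphosphates, was at 35.9, 39.7 and 33.5 in WT against 18.3, 24.1 and 22.0 in DKO. The groups were well apart, and the log2 change was -0.74 ± 0.28 with an adjusted p of 0.353 by limma. It was -0.93 in the replicate 1 pair and -0.64 in the other 4 libraries.

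The other pyrimidine members overlapped between the genotypes. Umps, which makes UMP, was at RPKM 48.3, 42.3 and 26.9 in WT against 52.4, 28.2 and 27.2 in DKO, with a log2 change of -0.15 ± 0.35. The mitochondrial dehydrogenase Dhodh was at 7.87 to 12.3 in WT against 4.36 to 13.8 in DKO, with a change of -0.05 ± 0.48. Ctps, which makes CTP, was at 33.2, 13.9 and 8.23 in WT against 9.35, 6.38 and 17.8 in DKO. WT replicate 1 stood above the other 5 libraries, and the log2 change of -0.57 ± 0.54 was 0.00 in the 4 libraries other than replicate 1.

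In purine salvage, Aprt, which recovers adenine, was the most abundant member in both genotypes. It was at RPKM 99.99, 140 and 133 in WT against 114, 116 and 102 in DKO, with a log2 change of -0.15 ± 0.22. Hprt, which recovers hypoxanthine and guanine, was at 59.3, 107 and 120 in WT against 76.7, 73.1 and 45.6 in DKO. WT replicate 1 lay among the DKO values, and the log2 change of -0.51 ± 0.33 was 0.37 in the replicate 1 pair and -0.96 in the other 4 libraries. Named pseudogenes exist for Aprt, Got2 and Impdh2, and the split of reads with them is uncertain.

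The spread of the members between libraries was described without a test. Their median coefficient of variation was 19.1% in WT and 31.6% in DKO, against 27.5% and 37.3% over all genes tested, and the DKO value was the larger in 20 of 34 members. DKO replicate 2 held the lowest of the 6 values for 14 members and DKO replicate 3 for 11, while DKO replicate 1 did so for 5. WT replicate 1 held the highest value for 13 members. The median member deviated from its WT mean by 0.15, -0.09 and -0.11 on the log2 scale in WT and by -0.31, -0.56 and -0.52 in DKO. For sex, limma called no interaction with genotype at an adjusted p under 0.05 among the members or among all genes. At an unadjusted p under 0.05 it placed 2 of 34 members, Prps1 and Ctps (5.88%, against 2.74% of all genes), with 1 male library in each genotype.

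The balance between enzymes of the same reaction was examined as a ratio within each library, for 6 pairs, by an exact two-sided permutation test whose smallest possible p is 0.1. The groups overlapped in every pair, and all 6 adjusted p-values were 1. The mitochondrial-to-cytosolic ratio Shmt2 over Shmt1 was 4.10, 3.69 and 3.29 in WT against 5.19, 1.80 and 1.23 in DKO. The WT libraries lay between 3.29 and 4.10, and the DKO libraries lay both above and below them, so the groups overlapped. The difference on the log2(RPKM + 1) scale was -0.74, with an exact p of 0.4, and -1.29 without DKO replicate 1. Mthfd2 over Mthfd1 was 2.05, 2.90 and 2.29 in WT against 1.50, 2.92 and 1.09 in DKO, a difference of -0.51 with an exact p of 0.3. Got2 over Got1 was nearly constant in WT, at 0.778, 0.81 and 0.774, and spread in DKO over 0.362, 1.14 and 1.96. The SD of this log2 ratio was 0.0346 in WT and 1.21 in DKO, a difference in spread that was not tested. Mthfd1l over Mthfd1, Prps1 over Prps2 and Impdh2 over Impdh1 had differences of 0.14, -0.14 and -0.14 with overlapping groups.

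**Figure D4:**
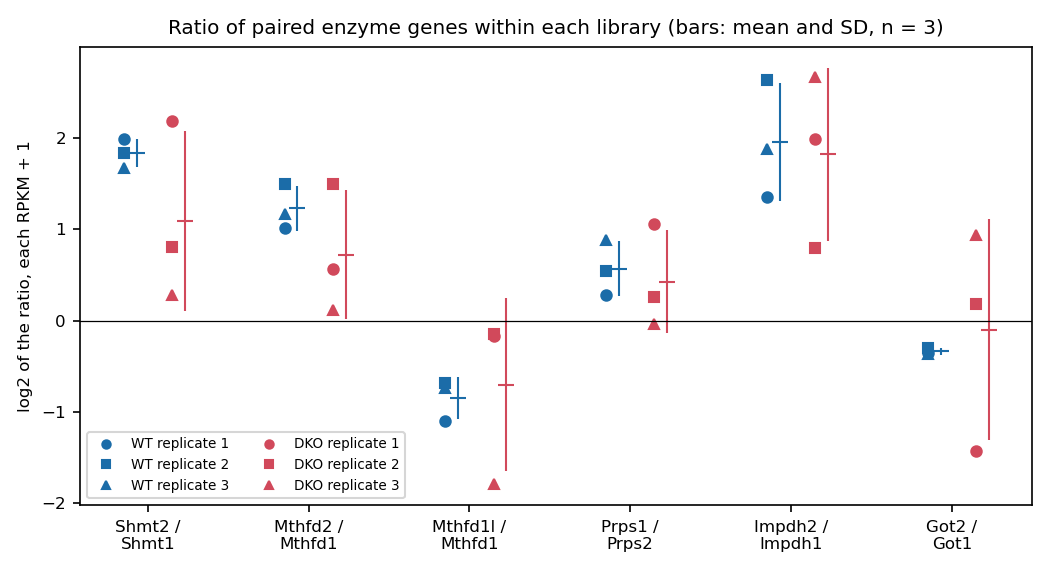
Log2 ratio of 6 enzyme pairs within each library, with 1 added to each RPKM and bars for the mean and SD (n = 3). WT and DKO points overlap in every pair, and for Got2 over Got1 the SD is 0.0346 in WT and 1.21 in DKO.

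Other genes of the same pathways were listed by function, 172 in all. A row was found for 127, and 126 were tested. Of the 126, 90 had a change below 0, none passed limma with adjustment over all genes in either direction, and their median change was -0.41. At an unadjusted p under 0.05, limma placed 22 lower (17.5%, against 8.14% of all genes) and 4 higher (3.17%, against 2.88%). The groups did not overlap for 28 lower (22.2%, against 11.4% of all genes) and 4 higher (3.17%, against 5.71%). The same shares of all genes, and the 57.1% of all genes below 0, stand behind the count of each list.

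Among the 43 further nucleotide and deoxynucleotide genes, 32 were below 0 (74.4%, against 57.1% of all genes), with a median of -0.44. They held 14 of the 28 pathway genes lower without overlap, or 32.6% of their list against 11.4% of all genes. Higher without overlap were 2 (4.65%, against 5.71%). Rrm1 and Rrm2 are the subunits of ribonucleotide reductase, which makes deoxynucleotides. Rrm2 was at RPKM 73.3, 50.04 and 66.7 in WT against 29.1, 14.2 and 30.0 in DKO, a log2 change of -1.40 ± 0.34 with an adjusted p of 0.182 by limma. Rrm1 was at 92.0, 46.7 and 40.4 in WT against 35.6, 12.2 and 28.7 in DKO, a change of -1.23 ± 0.44. In both genes all DKO libraries were below all WT libraries. Dut, which removes dUTP, was at 160, 181 and 193 in WT against 94.6, 39.3 and 100.3 in DKO, with a change of -1.29 ± 0.34 and no overlap. Xdh, xanthine dehydrogenase, degrades purines and was also lower without overlap. It was at RPKM 7.81, 6.13 and 5.00 in WT against 0.149, 0.0302 and 0.199 in DKO, a log2 change of -2.68 ± 0.54 with an adjusted p of 0.126 by limma.

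Among 16 further folate and glycine genes, 13 were below 0 (81.2%, against 57.1% of all genes). Lower without overlap were 2 (12.5%, near the 11.4% of all genes), among them Tyms. Tyms, which makes thymidylate from a folate-bound unit, was at RPKM 34.8, 31.5 and 25.8 in WT against 17.2, 9.08 and 4.96 in DKO. All DKO values lay below all WT values, and the log2 change was -1.61 ± 0.43 with an adjusted p of 0.212 by limma. Mthfsd, named for a similarity to a folate enzyme, overlapped between the groups at 3.03 to 17.3 in WT against 1.34 to 4.06 in DKO. Tyms is also transcribed in step with cell division, and the proliferation markers above were lower in the same libraries. Any link between them in these data was not tested.

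Of 16 further amino acid and glutamine genes, 9 were below 0 (56.2%, against 57.1% of all genes), with a median of -0.31. Without overlap, 2 were lower (12.5%, against 11.4%) and 1 was higher (6.25%, against 5.71%), so these counts were near the shares of all genes. The neutral amino acid transporter Slc43a2 was at RPKM 3.34, 3.99 and 2.80 in WT against 0.224, 0.934 and 1.50 in DKO, with no overlap. Slc38a1, a glutamine transporter, was at 15.0 to 23.3 in WT against 3.39 to 15.4 in DKO. Of 16 methionine, polyamine and sulphur genes, 10 were below 0 (62.5%, near the 57.1% of all genes). Lower without overlap were 3 (18.8%, against 11.4%). Odc1, the first enzyme of polyamine synthesis, was at RPKM 18.0, 23.3 and 10.7 in WT against 9.98, 7.79 and 5.04 in DKO, a log2 change of -1.07 ± 0.42. Its inhibitor gene Oaz1 was at 470 to 651 in WT against 370 to 423 in DKO, also without overlap. Ahcyl1, related to Ahcy, had a change of 1.17 ± 0.49 with overlapping groups.

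The 20 cytosolic aminoacyl-tRNA synthetases charge tRNAs and share regulation by Atf4 with serine genes. Of these, 19 were below 0 (95%, against 57.1% of all genes), with a median of -0.52. Lower without overlap were 5 (25%, against 11.4%). Gars, for glycine, was at RPKM 38.3, 48.3 and 45.4 in WT against 28.1, 30.9 and 17.4 in DKO, a log2 change of -0.80 ± 0.31 with an adjusted p of 0.367 by limma. Aars, for alanine, was at 18.0 to 22.9 in WT against 2.10 to 19.1 in DKO, and Kars, for lysine, at 67.8 to 102 and 41.3 to 73.9, both overlapping.

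Of the 7 measured Atf4 and stress regulators, 5 were above 0 and 2 below 0 (28.6%, against 57.1% of all genes). Their median was 0.39, and all overlapped between the genotypes. Atf4 itself was at RPKM 151, 208 and 254 in WT against 176, 236 and 137 in DKO, which overlapped, and its log2 change was -0.16 ± 0.27. Its partner Cebpg was at 4.11 to 6.56 in WT against 0.224 to 4.95 in DKO. Ddit4 and Ddit3, targets in the stress response, had changes of 0.91 ± 0.45 and 0.39 ± 0.24. Atf4 is controlled largely at translation, which RNA levels do not measure. Its other listed targets Atf5, Trib3, Chac1, Sesn2 and Nupr1 had no row.

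Among 8 Myc, Max and Mxd factors, 5 were below 0 (62.5%, near the 57.1% of all genes), with a median of -0.23. Myc was at RPKM 53.8, 47.1 and 45.5 in WT against 41.1, 21.3 and 31.7 in DKO. Every DKO library was below every WT library, and the log2 change was -0.67 ± 0.30 with an adjusted p of 0.46 by limma. Mxd3, which is expressed in dividing cells, was at 31.0 to 37.5 in WT against 13.4 to 30.6 in DKO, without overlap. Mxi1, an antagonist of Myc, was at 3.60 to 4.28 in WT against 6.21 to 7.59 in DKO, higher without overlap, with a log2 change of 0.71 ± 0.41 and an adjusted p of 0.564 by limma.

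**Figure D5:**
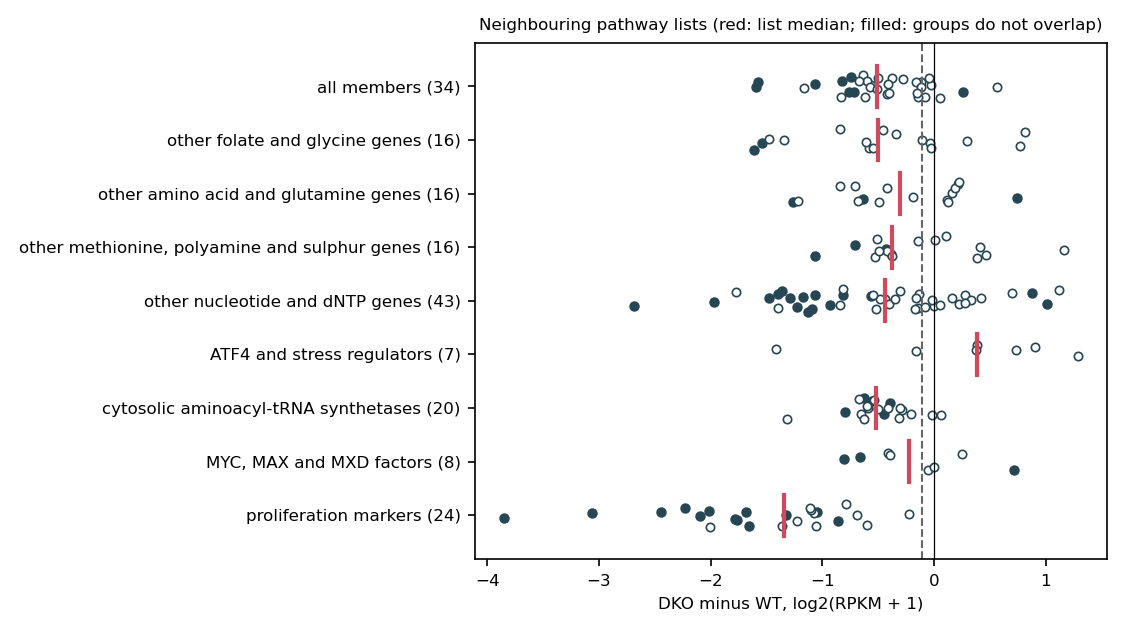
Log2 change, DKO minus WT on the log2(RPKM + 1) scale, of every tested gene in the members' list, the further pathway lists and the proliferation markers, filled where the groups do not overlap, with list medians in red and the median of all genes dashed. The medians are -0.51 for the members, -0.52 for tRNA synthetases, 0.39 for Atf4 and stress regulators and -1.34 for proliferation markers, beside -0.11 for all genes tested.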

How the data were processed

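Per the labels' protocols, polyadenylated RNA was amplified by a published method for small cell numbers and made into libraries with an indexed kit from Illumina. Bowtie and mm9 are named, per the submitters' processing notes. Versions, annotation, counting and strand were not given in the sources used here. Per the file headers, the authors deposited RPKM values with a gene length (another kind of value, in bases) for 10772 rows and 6 libraries, with no replicates pooled. RPKM times length gave whole reads within 0.05 for 99.6% to 100.0% of values, and amplified reads are not independent molecules.

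Rows were reduced to 1 per symbol (10755 genes, 540 rows without a symbol, 9918 identifiers found in GENCODE M21, used for names and exon overlaps). Genes at RPKM 1 or more in at least 3 libraries were tested (10694, 61 left out) on log2(RPKM + 1), which understates changes of low genes, with limma 3.58.1 in R 4.3.3 (mean-variance trend), Benjamini-Hochberg adjustment over all genes and a threshold of 0.05. Promoters came from a RefSeq table, in which Dhodh, Slc1a5 and Slc7a5 were not matched. Python 3.11.15, numpy 2.4.6, pandas 2.3.3 and matplotlib 3.10.9 were used, and the test was tried on simulated data.

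The members and lists were chosen by name and function with earlier results of these data known. Values in every library are given for members whose groups did not overlap and, in each role, for the 2 members with the smallest p and the most abundant one, and others by choice after their values were seen. Of each further list the 3 genes with the smallest p are named, with Atf4, Myc, Tyms, Rrm1 and Rrm2, and some genes the rule picks are not reported here. A second description label numbers both female DKO libraries 2, and the titles were followed. Alternatives varied the pseudocount, filter, scaling, variance model, library weights, test, covariates, depth and replicates.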

Additional observations from a re-analysis of the deposited data

How the results depend on the processing

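Of 34 members, 21 kept the sign of their change in all 19 alternatives, and Slc7a5 did in the 18 that tested it. Shmt2 was the 1 member called, and only with array weights, which made 1 member pass limma's adjusted threshold. In the 4 shallower libraries 14 of 34 members were lower and 2 of 34 higher without overlap, against 2833 (26.5%) and 1854 (17.3%) of 10694 genes. At an unadjusted p under 0.05, quantile normalization gave 4 lower members and a voom fit to whole reads recovered from RPKM gave 11, with 0 members passing the adjusted threshold in either. The count over all 10694 genes at that level, in either direction, was 1170 with quantile normalization and 1677 with voom, against 1179 in the main fit. Median log2 ratio scaling left 28 of 34 members below 0, and quantile normalization 27. Leaving out each library in turn gave 9 to 13 of 34 members lower without overlap (13 without WT replicate 2) and 1 to 2 higher (2 without WT replicate 1). Of all genes, 15.2% to 20.3% were lower and 8.08% to 12% higher without overlap in the smaller groups. Leaving out libraries also gave 4 to 7 members lower at an unadjusted p under 0.05 (4 without WT replicate 3) and 0 to 1 higher (1 without DKO replicate 2). All genes at that level, in either direction, numbered 769 to 1437 of 10694 in the same fits. The median change of the members stayed between -0.53 and -0.38 in these fits. The cause of the other shifts was not tested. Same-numbered libraries deviated from their group means with correlations of 0.226, 0.146 and 0.075, so the correlations alone do not establish pairs, although each library correlated best with its own number. The headers tie replicate 1 of both genotypes as Set1, and replicate 3 is male in both, but no source used here says that the numbers mark shared batches throughout. With the replicate block, 0 members passed limma's adjusted threshold, and 8 were lower at an unadjusted p under 0.05 against 7 without it. At that unadjusted level, 1597 of all genes, in either direction, were placed with the block and 1179 without it. The adjusted threshold was passed by 9 of all genes in each fit. The isozyme ratios gave no adjusted call under any alternative run, and 3 libraries a group cannot reach one. The 4 libraries of 5.0 M to 7.2 M reads limit the low members most: 1 read in a gene of 2000 bases was worth RPKM 0.0691 to 0.0993 there, against 0.0145 to 0.0154 in replicate 1.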
